A study of Homo sapiens with 11 samples.

Results

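Narrow H3K4me3 peaks that lie outside the replication origins of U2OS cells are described here. They are the regions of the U2OS H3K4me3 list on chromosomes 1 to 22 that were under 4000 bp wide and shared no base with any region of the U2OS origin list. The rule left 8722 peaks, which were 34.6% of the 25181 H3K4me3 peaks in the list, 36.0% of the 24227 on chromosomes 1 to 22 and 43.6% of the 19992 narrow peaks there. The other 11270 narrow peaks shared at least 1 base with a U2OS origin, and 4235 H3K4me3 domains were 4000 bp or wider. The 954 H3K4me3 peaks on the X and Y chromosomes were left out by the rule. The peaks were thus chosen by 2 measured values, the width of the H3K4me3 region and its overlap with U2OS origins, which are given below as descriptions.

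The study asked how RepID, a WD40 protein that binds a subset of replication origins, affects the chromatin association of ubiquitin ligases. It combined sequencing of nascent DNA strands, which maps where replication starts, with chromatin immunoprecipitation sequencing (ChIP-seq), in 11 samples, of which 8 had a list of enriched regions. The origins, CUL4A, H3K4me3 and H3K9me3 lists came from unsynchronized, untreated U2OS cells, an osteosarcoma line, with wild-type RepID. A further origin list came from HCT116 cells, a colon carcinoma line, in a clone in which RepID had been knocked out (RepID KO). SKP2 was mapped in unsynchronized, untreated HCT116 cells with wild-type RepID (WT) and in HCT116 RepID KO cells. CDT2 was mapped in unsynchronized U2OS cells, but whether these were wild type or stably overexpressed FLAG-tagged full-length RepID was stated differently in the study's text and in its deposited design, and this was not settled here. Every condition had 1 sample. The HCT116 origin list therefore differs from the U2OS list in both cell line and RepID genotype, which cannot be told apart. The intervals given below (95%, Wilson for a share and Newcombe for a difference between shares) cover counting error only, peaks are not replicates of a condition, and the sequencing depth of the samples was unknown.

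Trimethylation of lysine 4 on histone H3 marks the nucleosomes around active and poised promoters, and many human replication origins lie in such open, promoter-rich chromatin. Trimethylation of lysine 9 marks silent heterochromatin, and the 2 marks are usually kept apart. The cullin CUL4A forms the backbone of CRL4 ubiquitin ligases. CDT2 brings substrates to CRL4 on chromatin during S phase, and SKP2 does so for the SCF ligase, which shares the substrate CDT1 with CRL4. CDT1 loads the replicative helicase at origins, and its destruction after initiation prevents a second round of replication.

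Peaks outside origins were on the whole narrower and weaker than the other H3K4me3 peaks, with a long tail of strong peaks. Their width had a median of 1050 bp with quartiles of 400 and 2236 bp. The fold enrichment over the control, as the authors' peak caller gave it, had a median of 5.71 with quartiles of 4.27 and 8.94, and it ranged from 1.44 to 38.1. In narrow peaks at origins the median width was 1650 bp and the median fold enrichment was 6.29, and broad domains had a median fold enrichment of 12.0. At a given width the order of strength was the other way in 3 of 4 width classes. The median fold enrichment was 4.35 outside origins and 3.98 at origins below 500 bp, 4.63 and 4.26 from 500 bp, and 6.25 and 5.84 from 1000 bp. From 2000 bp upward it was 9.69 and 10.6. The caller's −log10 q had a median of 6.79 outside origins and 11.05 in narrow peaks at origins, and 94.0% of the peaks in both sets reached 2. With 36.0% of all autosomal peaks, the peaks outside origins held 22.1% of the bases of H3K4me3 (12152721 bases).

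The thresholds of the rule cut through continuous distributions. The widest peak outside origins, chr16:21962219-21966217 (hg19 here and below), was 1 bp short of the 4000 bp limit and had a fold enrichment of 19.5, and the narrowest excluded domain without an origin, chr9:107752743-107756742, measured 4000 bp and had a fold enrichment of 8.34. The peak nearest to an origin, chr1:164558003-164558320, ended 2 bp from it. The narrow peak that shared the fewest bases with an origin, chr10:50968594-50970999, shared 7 bases. Both of these near-boundary peaks met an HCT116 RepID KO origin. The next nearest peaks outside origins, chr17:1469244-1469995 at 5 bp and chr1:153951814-153952030 at 13 bp, met none. The narrow peaks that shared 8 and 9 bases with an origin, chr6:10338425-10339408 and chr5:79865722-79867209, each met an HCT116 RepID KO origin.

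The question for each of the 6 lists that the rule did not use was whether peaks outside origins met it less often than narrow peaks at origins did. A peak met a list where they shared at least 1 base. All 6 lists were met less often outside origins. CUL4A met 1234 of the 8722 peaks, 14.1% (13.4 to 14.9%), beside 37.2% of all autosomal H3K4me3 peaks. Among narrow peaks at origins CUL4A met 48.2%, so that the difference was −34.1 percentage points (−35.2 to −32.9).

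The substrate receptor CDT2 and the heterochromatin mark showed the same order at lower levels. CDT2 met 350 peaks outside origins, 4.01% (3.62 to 4.45%), beside 10.4% of all autosomal H3K4me3 peaks. At origins CDT2 met 14.3% of narrow peaks, a difference of −10.2 points (−11.01 to −9.48). H3K9me3 met 522 peaks outside origins, 5.98% (5.51 to 6.50%), beside 13.3% of all, and 16.7% at origins, a difference of −10.8 points (−11.6 to −9.91). The opposing histone mark was thus found at fewer of the peaks outside origins than of those at origins. Where at least 50% of the peak had to be covered, the differences were smaller, at −6.59 points for CDT2 and −5.43 points for H3K9me3.

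Replication origins of the other cell line were the list met most often, and also the list with the most bases on chromosomes 1 to 22. They covered 283128200 bases, beside 155299400 for CUL4A, 17808644 for CDT2 and 26025411 for H3K9me3. SKP2 covered 5784996 bases in HCT116 WT and 6649119 in HCT116 RepID KO. The shares were not adjusted for these sizes. Regions of the HCT116 RepID KO origin list met 4269 peaks outside U2OS origins, 48.9% (47.9 to 49.99%), beside 70.0% of all autosomal H3K4me3 peaks. The share at U2OS origins was 77.8%, a difference of −28.9 points (−30.2 to −27.6). Nearly equal numbers of the peaks without a U2OS origin therefore had and lacked an origin in the HCT116 RepID KO list.

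SKP2 was rare at H3K4me3 peaks in either genotype. In HCT116 WT it met 164 peaks outside origins, 1.88% (1.62 to 2.19%), beside 4.37% of all, with a difference from narrow peaks at origins of −3.24 points (−3.74 to −2.74). In HCT116 RepID KO it met 152 peaks, 1.74% (1.49 to 2.04%), beside 3.67% of all, with a difference of −2.81 points (−3.28 to −2.34). With at least 50% of the peak covered, these differences were −0.88 points in WT and −1.13 points in RepID KO. In all, 39 peaks outside origins were met by both SKP2 lists, which was 23.8% of the 164 and 25.7% of the 152. Among narrow peaks at origins, 118 were met by both lists. This was 20.5% of the 577 met in WT, and 513 were met in RepID KO. The partial overlap of the 2 lists was thus also found at origins, and a difference between the 2 sets was not tested. Outside origins, either list met 277 peaks, 3.18%, beside 7.16% of all. These lists came from another cell line than the H3K4me3 peaks.

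The number of peaks that met none of the 6 lists was 3859, 44.2% (43.2 to 45.3%), beside 23.2% of all autosomal H3K4me3 peaks. At origins this share was 13.8%, so that it was 30.5 points higher outside origins (29.2 to 31.7).

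**Figure D1:**
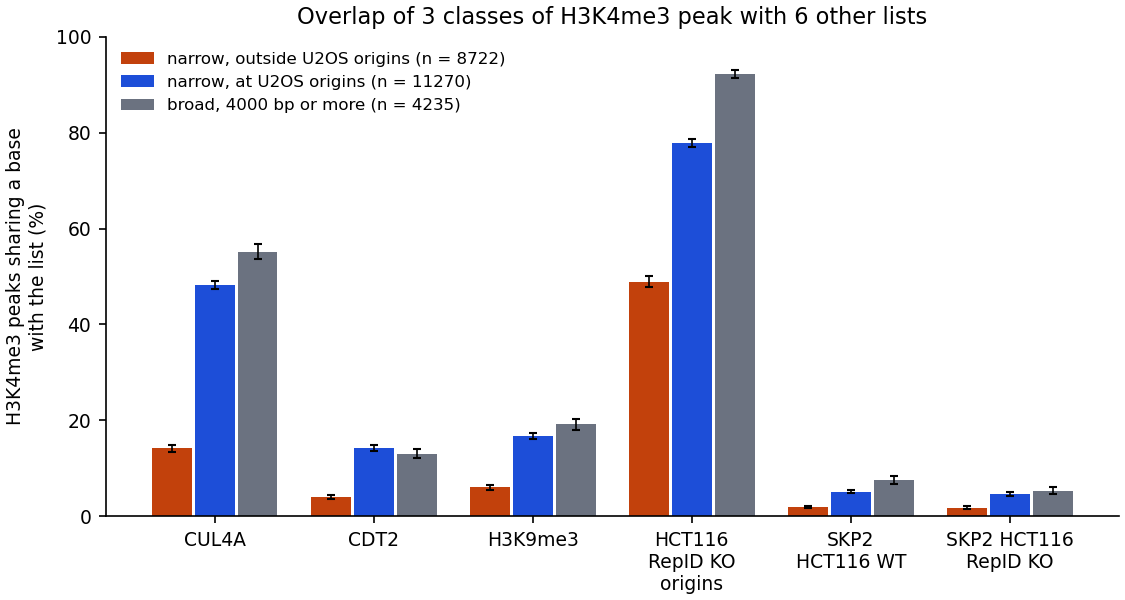
Percentage of H3K4me3 peaks sharing at least 1 base with each of 6 lists (y axis) for 8722 narrow peaks outside U2OS origins, 11270 narrow peaks at U2OS origins and 4235 broad domains; error bars are Wilson 95% intervals, which cover counting error only. The bars of the peaks outside origins are the lowest for each list, at 14.1% for CUL4A and 48.9% for HCT116 RepID KO origins.

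Against broad domains the shares were also lower for all 6 lists, but broad domains cover more bases each. The differences were −41.0 points (−42.7 to −39.4) for CUL4A and −43.4 points (−44.7 to −42.0) for HCT116 RepID KO origins, and with every peak replaced by 1 kb around its centre they were −26.5 and −36.3 points. For CDT2 the difference of −9.02 points became 0.54 points (−0.13 to 1.17) around the centres, and for H3K9me3 the difference of −13.2 points became 1.11 points (0.36 to 1.82). The direction for H3K9me3 against broad domains thus turned with the window, whereas the interval for CDT2 included 0. For SKP2 in HCT116 WT the difference of −5.60 points became −0.52 points (−1.06 to −0.032). For SKP2 in HCT116 RepID KO the difference of −3.52 points became −0.034 points (−0.52 to 0.40).

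The 716 broad domains without an origin, 16.9% of all broad domains, also shared no base with a U2OS origin but were wider and stronger. Their median width was 4676 bp and their median fold enrichment 10.4, beside 1050 bp and 5.71 in narrow peaks outside origins. The wider domains offer more bases for an overlap, and this comparison was not repeated around the centres. CUL4A met 23.5% of them, and the share in narrow peaks outside origins was 9.32 points below that (−12.6 to −6.27 as a signed difference). H3K9me3 met 9.92% of them, with a difference of −3.93 points (−6.39 to −1.88), and HCT116 RepID KO origins met 83.0%, with a difference of −34.0 points (−36.8 to −30.9). For CDT2 the difference was −0.60 points (−2.43 to 0.78), and for SKP2 it was −0.49 points in WT (−1.91 to 0.44) and −0.49 points in RepID KO (−1.88 to 0.41). These last 3 intervals included 0.

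The order between peaks outside and at origins was the same at matched widths. In each of 4 width classes (under 500 bp, then from 500, from 1000 and from 2000 bp up to the next bound) and for each of the 6 lists, the share was lower outside origins and the interval of the difference excluded 0. Below 500 bp, where there were 2644 peaks outside and 2653 at origins, CUL4A met 16.3% outside and 56.8% at origins, and CDT2 met 7.19% and 29.2%. From 2000 bp upward, CUL4A met 14.7% and 44.5%, and CDT2 met 2.51% and 7.56%. The gap was widest in the narrowest class for CUL4A (−40.5 points), CDT2 (−22.0 points), H3K9me3 (−20.7 points) and HCT116 RepID KO origins (−34.9 points).

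Within the peaks outside origins the lists followed width in opposite ways. The share meeting an HCT116 RepID KO origin rose from 28.3% (26.6 to 30.0%) below 500 bp through 36.8% and 54.7% to 73.4% (71.6 to 75.03%) from 2000 bp upward. CDT2 fell from 7.19% (6.26 to 8.23%) to 2.51% (1.98 to 3.19%) although the wider peaks offer more bases for an overlap. H3K9me3 was 8.59, 5.25, 4.23 and 5.06% over the 4 classes, highest in the narrowest but without a steady fall. The CUL4A share was 16.3, 12.6, 11.6 and 14.7% over the 4 classes, with no steady order. From the narrowest to the widest class, narrow peaks at origins moved in the same directions. There HCT116 RepID KO origins went from 63.2% to 87.0%, CDT2 from 29.2% to 7.56% and H3K9me3 from 29.3% to 12.0%.

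**Figure D2:**
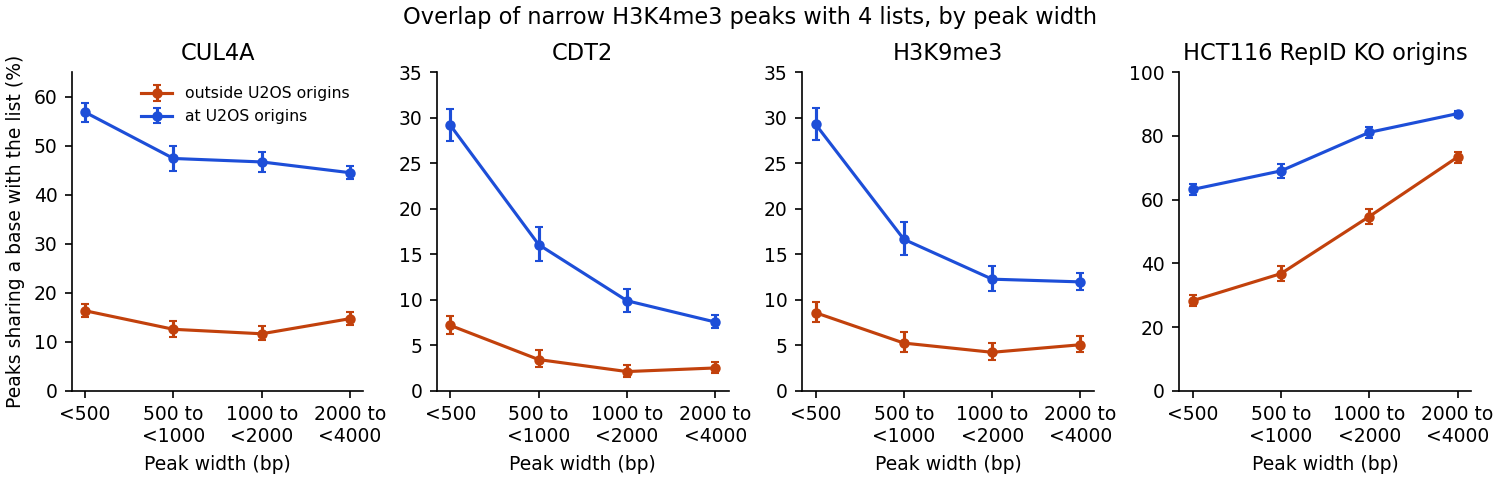
Percentage of narrow H3K4me3 peaks sharing a base with the CUL4A, CDT2, H3K9me3 and HCT116 RepID KO origin lists (y axis, with different ranges) in 4 classes of peak width (x axis), outside and at U2OS origins; error bars are Wilson 95% intervals. The line for peaks outside origins lies below the other in every class, and its HCT116 RepID KO origin share climbs from 28.3% to 73.4%.

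With H3K4me3 strength, HCT116 RepID KO origins and CDT2 again moved in opposite directions, whereas H3K9me3 did not fall from end to end. The 8722 peaks were ordered by fold enrichment and divided into 10 equal bins. The share meeting an HCT116 RepID KO origin was 35.9% in the weakest bin, 30.8% in the next and 71.1% in the strongest, where the fold enrichment was at least 12.8. CUL4A was met most at the 2 ends of the range. It met 21.2% (18.6 to 24.0%) of the weakest bin, from 10.3% to 11.1% of bins 6 to 9, and 24.2% (21.4 to 27.1%) of the strongest bin. CDT2 met 7.79% (6.19 to 9.76%) of the weakest bin and 2.86% (1.95 to 4.19%) of the strongest. H3K9me3 met 7.45% (5.88 to 9.38%) of the weakest bin and 7.22% (5.68 to 9.13%) of the strongest. In bins 7 to 9 its share was lower, from 4.13% to 4.36%. The bins differed in width, with a median of 388 bp in the weakest and 2596 bp in the strongest, and the part of width in these shares was not separated. For narrow peaks at origins in the same ranges of fold enrichment, CUL4A met 55.3% in the weakest bin, from 45.2% to 54.8% in bins 2 to 5, 37.7% in bin 9 and 53.2% in the strongest. The 2 curves were not compared by a test.

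**Figure D3:**
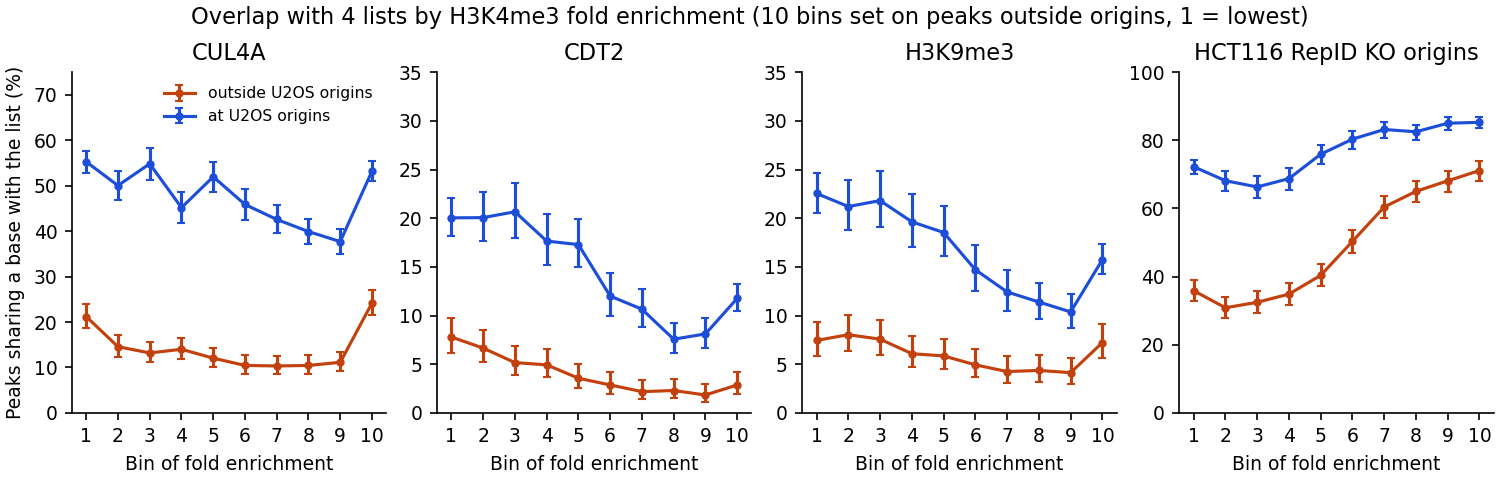
Percentage of narrow H3K4me3 peaks meeting each of 4 lists (y axis, with different ranges) by bin of fold enrichment (x axis, 1 is the weakest and 10 the strongest; bounds set on peaks outside origins), outside and at U2OS origins, with Wilson 95% intervals. CUL4A outside origins is highest in the weakest (21.2%) and strongest (24.2%) bins, whereas the HCT116 RepID KO origin share reaches 71.1% in the strongest.

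The overlaps were highest at the peak centres. At the peak centres 11.4% of the positions outside origins lay inside a CUL4A region, compared with 6.33% at 20 to 25 kb from the centre. For CDT2 the 2 values were 2.94% and 0.745%, for H3K9me3 3.37% and 0.977%, and for HCT116 RepID KO origins 39.9% and 13.8%. For SKP2 they were 1.12% and 0.232% in HCT116 WT, and 0.894% and 0.287% in HCT116 RepID KO. The ratio of centre to flank was 4.83 for SKP2 in WT, 3.94 for CDT2, 3.45 for H3K9me3 and 3.12 for SKP2 in RepID KO. It was 2.89 for HCT116 RepID KO origins and 1.80 for CUL4A. All 6 lists were therefore denser at these H3K4me3 peaks than in their flanks, including the heterochromatin mark. By the rule the centres lay outside U2OS origins, whereas the flanks could hold them. The effect of this on the ratios was not tested. At narrow peaks at origins the centre values were higher, at 40.8% for CUL4A and 70.1% for HCT116 RepID KO origins, and so were the flanks, at 16.7% and 27.5%. The ratio there was higher for CDT2 (7.68), H3K9me3 (6.72), SKP2 in WT (5.90), SKP2 in RepID KO (5.27) and CUL4A (2.45). For HCT116 RepID KO origins it was lower, at 2.55.

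**Figure D4:**
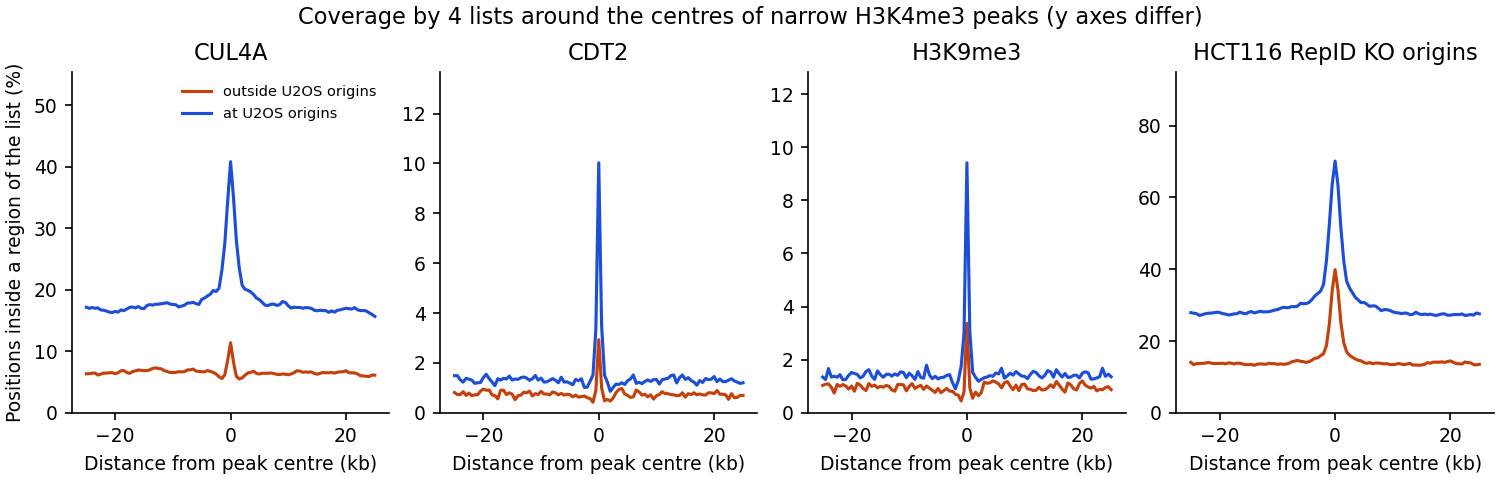
Percentage of positions lying inside a region of each list (y axis, with different ranges) at 500 bp steps up to 25 kb from the centres of narrow H3K4me3 peaks (x axis), outside and at U2OS origins. Both lines peak at the centre, reaching 11.4% and 40.8% for CUL4A, and the peaks outside origins have lower flanks.

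Peaks without a shared base were often close to an origin. The distance to the nearest U2OS origin had a median of 6.61 kb with quartiles of 2.39 and 19.7 kb. An origin lay within 1 kb of 759 peaks (8.70%) and from 1 to 5 kb from 2993 peaks (34.3%), whereas 418 peaks (4.79%) were over 100 kb from any origin. The peaks far from origins were not the weakest ones. The median fold enrichment was 5.29 within 1 kb and 6.61 beyond 100 kb, and the median width was 852 and 1239 bp.

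CUL4A declined with this distance. It met 20.9% (18.2 to 24.0%) of the peaks within 1 kb of an origin, 17.2% from 1 to 5 kb, 13.8% from 5 to 20 kb, 8.86% from 20 to 100 kb and 4.31% (2.74 to 6.70%) beyond 100 kb. The HCT116 RepID KO origin share was 62.1% (58.6 to 65.4%) within 1 kb and 50.6% from 1 to 5 kb. It then stayed near 45%, with 46.7%, 45.0% and 45.2% (40.5 to 50.01%) in the 3 farther classes. CDT2 met 4.22% within 1 kb and 1.67% (0.814 to 3.42%) beyond 100 kb, and H3K9me3 met 5.93% and 2.39%. With only the 4970 peaks that had no origin within 5 kb, the CUL4A share was 11.3% and its difference from narrow peaks at origins was −36.9 points.

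The peaks outside origins also lay in regions with fewer origins. Within 500 kb on either side, without the nearest 10 kb, U2OS origins covered a median of 11.9% of the bases around peaks outside origins (quartiles 4.82 and 23.1%) and 28.0% around narrow peaks at origins (quartiles 15.7 and 41.2%). This coverage uses the same origin list as the rule and is a description. In 3 equal groups of the narrow peaks with low, middle and high coverage, the peaks outside origins made up 67.8%, 41.7% and 21.4%. The lower CUL4A share outside origins was found within each group, with differences of −27.6 points (−29.8 to −25.4), −27.2 points (−29.3 to −25.1) and −32.6 points (−35.1 to −29.9). All differences for the other 5 lists were also negative in each group, with intervals that excluded 0. Within the peaks outside origins, CUL4A met 9.85% at low coverage and 23.6% at high coverage.

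Spacing among H3K4me3 peaks followed the same order. The nearest other H3K4me3 peak lay at a median of 21.1 kb from a peak outside origins and at 12.3 kb from a narrow peak at an origin. The nearest broad domain lay at a median of 224 kb and 107 kb. A neighbour within 2 kb was nevertheless about as frequent in both sets, with 26.2% (2286 peaks) and 27.1%, and these close neighbours are not independent of each other.

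Chromosomes differed widely in the part of their narrow peaks that lacked an origin. The share was highest on chromosome 13, with 330 of 451 narrow peaks (73.2%, 68.9 to 77.1%), followed by chromosomes 18 (62.6%) and 4 (62.3%), whose intervals overlapped. It was lowest on chromosomes 17 (26.3%, 23.7 to 29.0%) and 22 (28.5%), whose intervals also overlapped. U2OS origins covered 2.71% of chromosome 13 and 31.3% of chromosome 17. Over the 22 chromosomes the share had a Pearson correlation of −0.91 with the coverage by U2OS origins, which the rule used, and of −0.79 with the coverage by HCT116 RepID KO origins, which it did not use. The share is itself defined by U2OS origins, so the first correlation is in part built in by the rule. HCT116 RepID KO origins covered 3.83% of chromosome 13 and 24.0% of chromosome 17, the same order as U2OS origins. The second correlation is thus not independent of the first. The chromosomes also share the libraries of both axes, so these correlations are given as descriptions. Chromosome 19 had the most peaks outside origins per Mb, 7.76 (459 peaks), and 24.0% of these met CUL4A. These were 33.9% of its 1354 narrow peaks, a lower share than the 43.6% over chromosomes 1 to 22. The highest CUL4A share was on chromosome 22, at 31.5%, and the lowest on chromosome 5, at 8.20%.

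**Figure D5:**
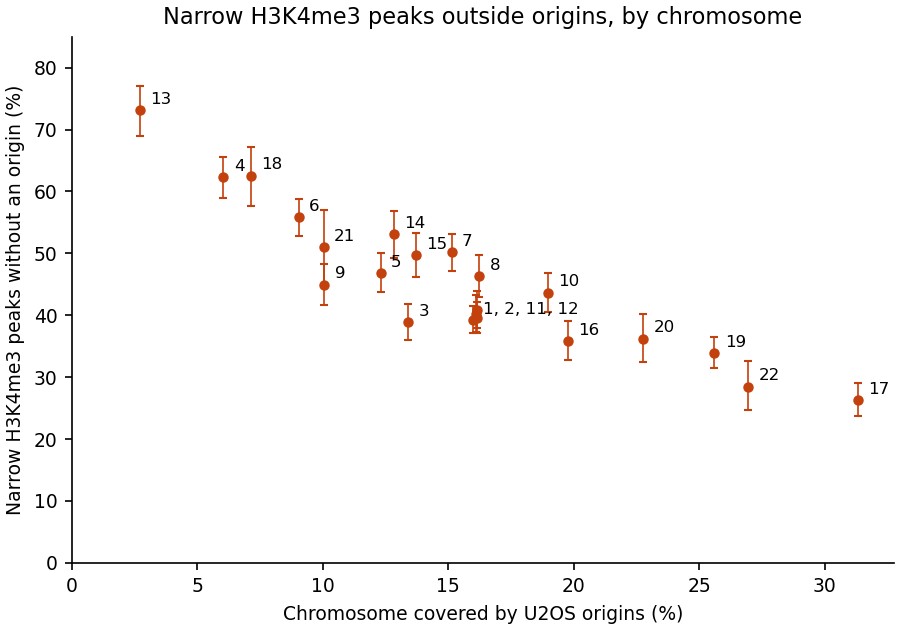
Percentage of the narrow H3K4me3 peaks of a chromosome that share no base with a U2OS origin (y axis, with Wilson 95% intervals) against the percentage of the chromosome covered by U2OS origins (x axis); each point is 1 of 22 chromosomes, labelled by its number. The points fall from chromosome 13 (73.2%) to chromosome 17 (26.3%).

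Long stretches without any U2OS origin held some of these peaks. There were 200 such stretches of at least 500 kb, and 120 of them held 303 of the peaks, 3.47%. The HCT116 RepID KO origin list had a median of 5.41 regions per Mb in these 120 stretches, compared with 29.1 per Mb over chromosomes 1 to 22. In 12 stretches the HCT116 RepID KO list had at least 20 regions per Mb.

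The stretch with the most peaks was chr7:146479401-149473600, which spans 2994 kb. It held 29 narrow H3K4me3 peaks, 83 HCT116 RepID KO origins and no U2OS origin, and 16 of the 29 peaks met an HCT116 RepID KO origin. Their fold enrichment had a median of 6.40 and reached 22.9, and 2 met CUL4A. The flanks, each as long as the stretch, together held 69 U2OS origins and 189 HCT116 RepID KO origins. The 3 peaks farthest from any U2OS origin were all in this stretch. They were chr7:147959330-147959964 at 1480 kb with a fold enrichment of 3.84, chr7:148036066-148037622 at 1436 kb with 5.89, and chr7:148394835-148395584 at 1078 kb with 5.25, and the last 2 met an HCT116 RepID KO origin.

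The next stretches by number of peaks were on chromosomes 19 and 21. The stretch chr19:19761401-21890000 held 14 peaks and 42 HCT116 RepID KO origins, and chr19:12169601-12706600 held 12 peaks and 19 HCT116 RepID KO origins. The stretch chr21:40366801-41346400 held 10 peaks, of which 8 met 1 or more of its 59 HCT116 RepID KO origins. Its flanks had 4 U2OS origins against 78 HCT116 RepID KO origins. These stretches were singled out after their values were seen.

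Some lists tended to meet the same peaks. Peaks that met an HCT116 RepID KO origin met CUL4A in 20.6% of cases, compared with 7.93% of those that did not, a difference of 12.7 points (11.3 to 14.2). By the same split CDT2 differed by 0.22 points (−0.61 to 1.05) and H3K9me3 by −0.11 points (−1.11 to 0.89), and both intervals included 0. SKP2 in HCT116 WT was met more often with an HCT116 RepID KO origin, by 1.27 points (0.70 to 1.86), and SKP2 in HCT116 RepID KO by 0.62 points (0.073 to 1.19). Peaks with an HCT116 RepID KO origin were wider, with a median of 1756 bp against 630 bp, and stronger, with a median fold enrichment of 7.11 against 4.91.

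Peaks with CDT2 often met CUL4A, H3K9me3 and SKP2 as well. Of the 350 peaks with CDT2, 246 (70.3%) met CUL4A, compared with 11.8% of the peaks without CDT2, a difference of 58.5 points (53.4 to 63.1). H3K9me3 met 171 of the 350 (48.9%) against 4.19% of the others, a difference of 44.7 points (39.4 to 49.9). SKP2 in HCT116 WT met 80 of them (22.9%) against 1.003%, and SKP2 in HCT116 RepID KO met 55 (15.7%) against 1.16%. The peaks with CDT2 were narrow and weak, with a median width of 439 bp and a median fold enrichment of 4.52. The same association was seen in narrow peaks at origins, where 86.9% of the peaks with CDT2 met CUL4A and 61.4% met H3K9me3.

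Combinations were few. One list alone was met by 3590 peaks (41.2%), of which 3205 met only HCT116 RepID KO origins. These 3205 were 36.7% of the peaks outside origins, beside 31.7% (3574 peaks) of narrow peaks at origins. CUL4A with HCT116 RepID KO origins and no other list was the most frequent pair, with 634 peaks (7.27%), whereas at U2OS origins this pair made up 25.7% of narrow peaks. CUL4A alone was met by 179 peaks (2.05%), beside 2.36% of narrow peaks at origins. CDT2 alone was met by 38 peaks (0.436%), beside 0.497% at origins. All 6 lists were met by 17 peaks (0.195%), beside 0.364% of narrow peaks at origins. These 17 peaks were singled out after their values were seen. They lay on 11 chromosomes, 4 of them on chromosome 2, and their fold enrichment ranged from 1.69 to 7.26. The strongest of the 17 was chr5:14402566-14403129, and the one with the largest −log10 q, 51.2, was chr9:36763822-36766453.

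Regions of the other lists that met peaks outside origins also differed in score from those that met narrow peaks at origins. The 4045 HCT116 RepID KO origins met by peaks outside U2OS origins had a median score of 210, those met by narrow peaks at origins 396, and the whole autosomal list 153. The 1217 CUL4A regions had a median score of 52 against 100, and the whole list had 62. The CUL4A regions at peaks outside origins were thus below the middle of their own list, and narrower, with a median of 1800 bp against 2800 bp. CDT2 and H3K9me3 regions had median scores of 32.8 and 29 outside origins against 36.2 and 36 at origins, and their whole lists had 27.1 and 25. The medians of the SKP2 lists went in opposite directions, but the quartile ranges overlapped. In HCT116 WT the median score was 647 (quartiles 326 and 1785) over 163 regions outside origins. At origins it was 578 (351 and 1227.5) over 579 regions. In HCT116 RepID KO the median was 406 (282 and 1084) over 153 regions outside origins. At origins it was 580.5 (351.75 and 1112.25) over 514 regions. The whole autosomal SKP2 lists had medians of 380 in WT and 359.5 in RepID KO. In every list but CUL4A, the median outside origins was thus above that of the whole list. With 1 sample each, a difference between the genotypes was not tested. The unit of these scores is not given in the sources used here, so they are compared only within a list.

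The overlaps covered different parts of the peaks. CUL4A regions covered 565 of the 1234 peaks they met in full (45.8%), beside 51.2% for narrow peaks at origins. HCT116 RepID KO origins covered 1450 of 4269 in full (34.0%), beside 49.9% at origins. CDT2 covered 186 of 350 in full (53.1%), beside 51.7% at origins. H3K9me3 covered 90 of 522 in full (17.2%), beside 23.2% at origins. Its median cover of the peak was 50.03% outside origins and 50.9% at origins.

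The strongest single peaks illustrate the range. The peak with the highest fold enrichment, chr2:216974046-216975087 (1042 bp), reached 38.1 and met none of the 6 lists, although a U2OS origin lay 2.65 kb away and a CUL4A region 3.25 kb away. The next, chr6:86350390-86353132 (2743 bp), reached 37.5, lay 47.7 kb from a U2OS origin, and met CUL4A, an HCT116 RepID KO origin and SKP2 in HCT116 WT. These 2 peaks of nearly equal strength thus differed in the lists they met.

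The peak chr19:57900777-57902605 had a fold enrichment of 33.4 and met H3K9me3 alone. The peak chr7:98028131-98030936 had a fold enrichment of 33.3 and met CUL4A, CDT2 and an HCT116 RepID KO origin at 10.5 kb from a U2OS origin. The fifth, chr2:208889522-208891011, had a fold enrichment of 32.9 and met none. A second strong peak with CDT2, chr7:150972480-150974490, had a fold enrichment of 31.7 and met CUL4A, H3K9me3 and an HCT116 RepID KO origin as well, at 27.5 kb from a U2OS origin. The second strongest peak with SKP2 of either genotype, chr8:1772519-1775220, had a fold enrichment of 28.1 and met CUL4A, 2 HCT116 RepID KO origins and SKP2 in HCT116 RepID KO. The genes at these positions were not analysed here.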

How the data were processed

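ChIP-seq of U2OS and HCT116 cells and sequenced nascent strands were used as the region lists the authors deposited, on build hg19 per the labels. No reads were used. Per the study's methods, the authors called origins and CUL4A with SICER (200 bp windows) and CDT2 and SKP2 with MACS2. SICER is named there for histone marks too, whereas the columns of both deposited histone lists are those of MACS broad peaks. From these deposited lists came the fold enrichment, a linear ratio over the control, and the −log10 p and q values. The score deposited in the other lists has no stated unit, and 3 further columns of the SKP2 lists were not used.

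Overlaps needed at least 1 shared base and were computed with NumPy 2.4.6 and pandas 2.3.3 under Python 3.11.15. The overlap counts were tested on 10000 simulated peaks, of which 0 differed from the known answer. Positions are 1-based. Wilson and Newcombe 95% intervals cover counting error only. Every condition had 1 sample, so replicate spread is unknown and no test was made. A difference between shares was called where its interval excluded 0.

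The peaks, the classes and the lists compared were chosen with earlier results of these data known. Peaks named are the 5 with the highest fold enrichment, the 2 highest meeting each list (both SKP2 lists pooled), the 3 farthest from an origin, and examples at the thresholds of the rule. Other peaks and stretches named were chosen after their values were seen. Gene starts, gene lists, cell type markers, GC content and sequences were not analysed here, because the reference tables used here are of another build (GRCh38). Alternatives were another overlap rule, 1 kb around the peak centres, a stricter q value, a single width class, no origin within 5 kb and the stronger part of each partner list. Groups of regional origin coverage were chosen after seeing the data.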

Additional observations from a re-analysis of the deposited data

How the results depend on the processing

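All 6 differences from narrow peaks at origins kept their sign, with intervals excluding 0, under each of 8 alternatives, from −36.9 to −27.2 points for CUL4A and from −31.9 to −24.1 points for HCT116 RepID KO origins. The ranges were wider in proportion for the other lists, from −10.7 to −6.59 points for CDT2, −11.2 to −5.43 for H3K9me3, −4.05 to −0.88 for SKP2 in WT and −4.12 to −1.13 for SKP2 in RepID KO, with the smallest values where at least 50% of the peak had to be covered. Against broad domains, 1 kb around the centres turned H3K9me3 to 1.11 points. It brought CDT2 to 0.54 points and SKP2 in HCT116 RepID KO to −0.034 points, both with intervals that include 0. SKP2 in HCT116 WT was then −0.52 points, with an interval that excludes 0. Peaks were then of equal length.

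The shares outside origins moved beyond their counting interval as follows. Requiring at least 50% of the peak to be covered gave 10.7% for CUL4A, 2.81% for CDT2, 2.99% for H3K9me3, 34.3% for HCT116 RepID KO origins, 1.01% for SKP2 in WT and 0.745% for SKP2 in RepID KO. Allowing a gap of up to 1 kb gave 16.6, 4.48, 7.34, 52.6, 2.25 and 2.06% in the same order. With 1 kb around the centre CDT2 was 3.57% and H3K9me3 4.84%. Peaks with a −log10 q of at least 2 met HCT116 RepID KO origins in 50.1%. Peaks with no origin within 5 kb numbered 4970 and met CUL4A in 11.3%, CDT2 in 3.52% and HCT116 RepID KO origins in 46.0%. Their median fold enrichment, width and −log10 q were 6.13, 1196 bp and 7.63, and with a −log10 q of at least 2 they were 5.98, 1157 bp and 7.48. The cause of these shifts was not tested.

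Analyses of gene starts and GC content were not run, because the reference was of another build. No paired analysis was possible because every condition had 1 sample. Depth was unknown, and origins or partner regions below the callers' thresholds cannot be told apart from absent ones.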
